A study of Mus musculus with 12 samples.

Results

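The starvation response of the NG2|EDmut line was measured in 6 of the 12 RNA-seq libraries of the series. They were chosen by their labels: 3 cultures of the mutant line kept in serum starvation medium and 3 kept in serum-supplemented medium. The line is a clone of fibrochondrocytes from the mandibular condylar cartilage of C57BL/6J pups aged 10 to 14 days, immortalized with hTERT (the enzyme part of telomerase). CRISPR/Cas9 was used to truncate the part of the NG2/CSPG4 ectodomain that binds type VI collagen. All 6 cultures carry that truncation and that immortalization, and all of them come from 1 clone, so a p-value here measures the spread between cultures of 1 clone. Starvation medium was Optimem with L-glutamine, penicillin and Plasmocin. Serum medium was AMEM with heat-inactivated fetal bovine serum and the same additives, so the removal of serum and the change of base medium cannot be told apart. How long the cells were starved was not stated in the labels or methods used. The other 6 libraries are of the control line, which has the full-length ectodomain, in the same media with 3 cultures each. They are used below to test whether the responses of the lines differ.

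Serum supplies cultured fibroblast-like cells with growth factors and with lipoproteins, the particles that carry cholesterol. Growth factor receptors act through the ERK kinases, which switch on immediate early transcription factors and also a layer of feedback inhibitors that shut the pathway down again. Further downstream, cyclin-dependent kinases release the E2F factors, which drive the genes of DNA replication. When sterol in the endoplasmic reticulum is low, the factor SREBP-2 is cut free and drives the genes of cholesterol synthesis. Among the known partners of NG2/CSPG4, a proteoglycan of the cell surface, are type VI collagen, β1 integrin and the growth factors PDGF-AA and FGF2.

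Depth was similar in the groups, with 67333556 to 75709776 estimated counts in starved cultures and 69369756 to 77172479 in serum cultures. The 2 groups separated on the first principal component, which held 55.3% of the variance (-20.0 to -19.5 in starved cultures and 16.9 to 21.7 in serum cultures). Serum replicate 3 stood nearest to the starved cultures on that axis, and it had 3.18% of its counts in ribosomal RNA genes against 0.61% to 1.09% in the other 5 libraries. Its part in the results was not tested beyond leaving it out. The cell type label was checked in FPKM, which is per length. Col1a1 was at 3353 to 3711 FPKM in starved cultures and 3455 to 4101 FPKM in serum cultures, and the osteochondral factor Runx2 was at 41.9 to 46.4 FPKM in starved cultures and 36.7 to 40.4 FPKM in serum cultures. Of the defining genes of cartilage, Acan was close to absent at 0.018 to 0.026 FPKM in starved cultures and 0 to 0.042 FPKM in serum cultures, and Col2a1 was low at 0.99 to 1.58 FPKM in starved cultures and 1.08 to 2.30 FPKM in serum cultures. Of the markers of other cell types, all 7 endothelial genes and 6 of 9 macrophage genes stayed under 1 FPKM in each of the 6 libraries. The summed macrophage markers were at 10.3 to 16.4 FPKM in starved cultures and 6.92 to 11.6 FPKM in serum cultures. The summed neural and Schwann markers were at 66.3 to 70.5 FPKM in starved cultures and 53.9 to 60.6 FPKM in serum cultures, with 1 of 7 genes, Tubb3, called higher and making up most of the sum. Acta1 of skeletal muscle (-1.15, adjusted p = 0.011) and Pparg of adipocytes (-0.77, adjusted p = 0.0016) were called lower. The part of these markers in the results was not tested.

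Of 17542 genes tested in the mutant line, 1221 (6.96%) were higher and 1539 (8.77%) were lower in starved cultures at a Benjamini-Hochberg adjusted p under 0.05 in edgeR's quasi-likelihood test. The groups did not overlap for 2750 of these 2760 genes, against 34.7% of all genes tested. The calls and the overlap rest on the same values, so the overlap is no separate test of the calls. Most of the called changes were small. The median size was 0.49 on the log2 scale, and 176 of the higher and 259 of the lower genes changed at least 2-fold. The median over all genes was -0.0051. Counts and medians of gene groups below are read against these shares, the 6.96% for higher and the 8.77% for lower, and levels are given as CPM, depth-scaled estimated counts computed with TMM library sizes, for replicates 1, 2 and 3 in that order.

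**Figure D1:**
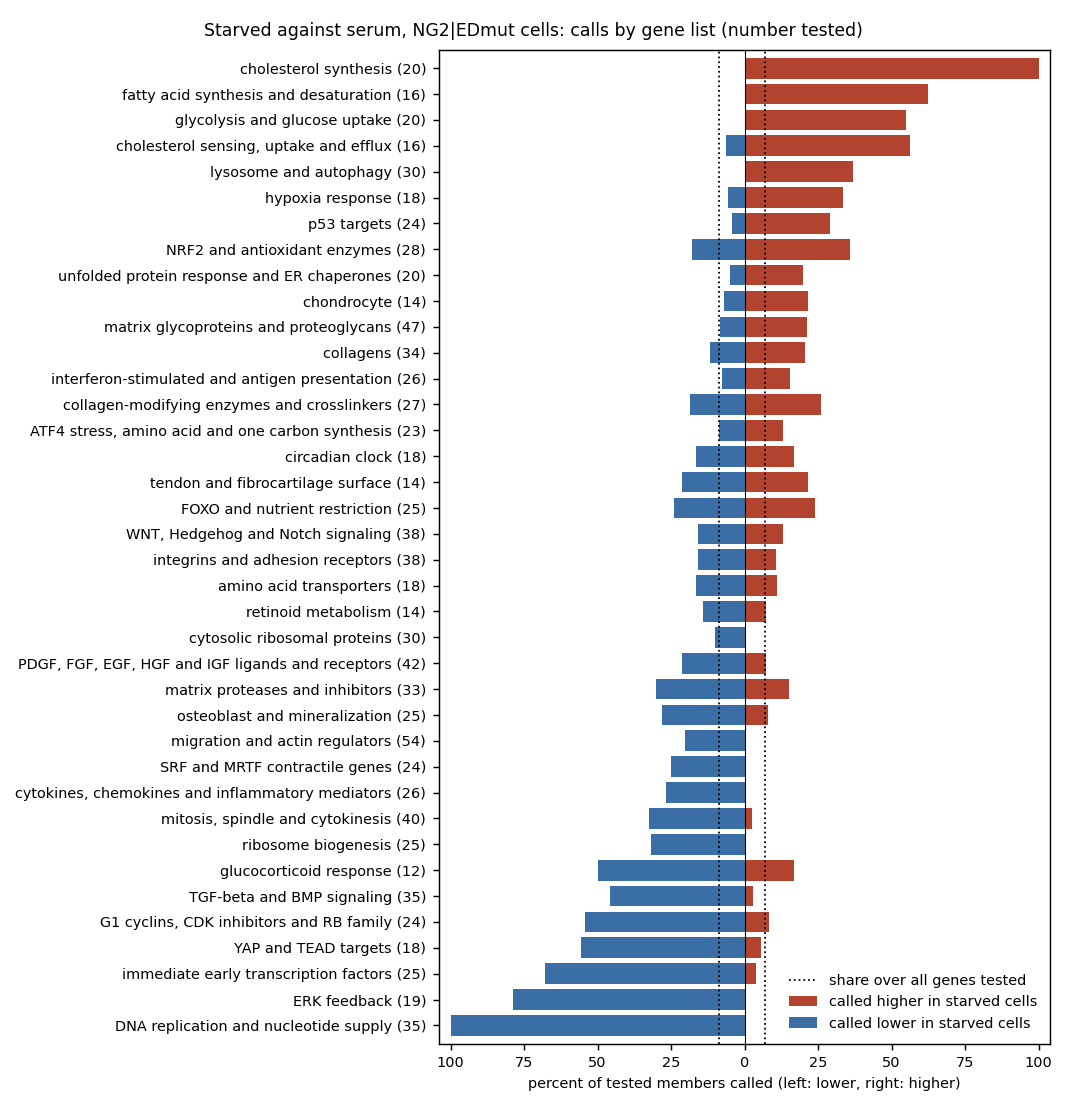
Percent of the tested members of each gene list that were called higher (red, right) or lower (blue, left) in starved NG2|EDmut cells, with the number tested in parentheses and the shares over all genes, 8.77% lower and 6.96% higher, as dotted lines. All 20 cholesterol synthesis genes lie on the higher side and all 35 DNA replication genes on the lower side.

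Cholesterol synthesis stood at one end of the response. Every one of its 20 enzymes was higher in starved cultures, with a median log2 fold change of 1.56 and a range of 0.60 to 2.20, and no member overlapped between the groups (16.7% of all genes were higher without overlap). Summed over the pathway, the enzymes took 2492, 2505 and 2320 CPM in starved cultures and 775.6, 758 and 1065 CPM in serum cultures. All 20 calls were also made with the replicate block and when any 1 of the 6 libraries was left out. A fit over all 12 libraries of the series called 14 of them. Without serum replicate 1 of the control line, that fit called all 20.

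The early steps make mevalonate. Hmgcs1, which condenses acetyl-CoA units into HMG-CoA, was at 357, 374 and 341 CPM in starved cultures and at 96.5, 92.7 and 133 CPM in serum cultures. On the log2 scale it was 1.74 higher in starved cultures, with a standard error of 0.13 (adjusted p = 6.1e-05, edgeR). Mvd, which makes isopentenyl diphosphate, was at 60.1, 56.3 and 49.5 CPM against 13.4, 15.7 and 15.5 CPM in serum (1.89, standard error 0.10, adjusted p = 1.2e-05).

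Fdps, which makes farnesyl diphosphate, was at 207, 202 and 188 CPM in starved cultures and 37.5, 38.5 and 69.1 CPM in serum cultures (2.04, standard error 0.21, adjusted p = 0.00031). A gene model named Gm3571 on chromosome 10 was among the 10 genes with the largest rise (2.07), and its 1060-base sequence is 98.9% identical to the Fdps transcript over 1062 aligned positions, so reads of the pair may have been shared. Later steps close the sterol rings and trim them. Lss, which forms lanosterol, was at 128, 124 and 119 CPM against 51.1, 46.9 and 54.8 CPM in serum (1.28, standard error 0.07). The largest rise of the pathway was in Tm7sf2, a sterol reductase, at 16.7, 14.1 and 11.6 CPM against 2.40, 2.80 and 4.04 CPM in serum (2.20, standard error 0.21, adjusted p = 0.00018). Tm7sf2 overlaps Vps51 on the same strand, and Vps51 did not pass the test (0.10, adjusted p = 0.59). The smallest rise was that of Ebp, a sterol isomerase (0.60, standard error 0.06, adjusted p = 0.00026).

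**Figure D2:**
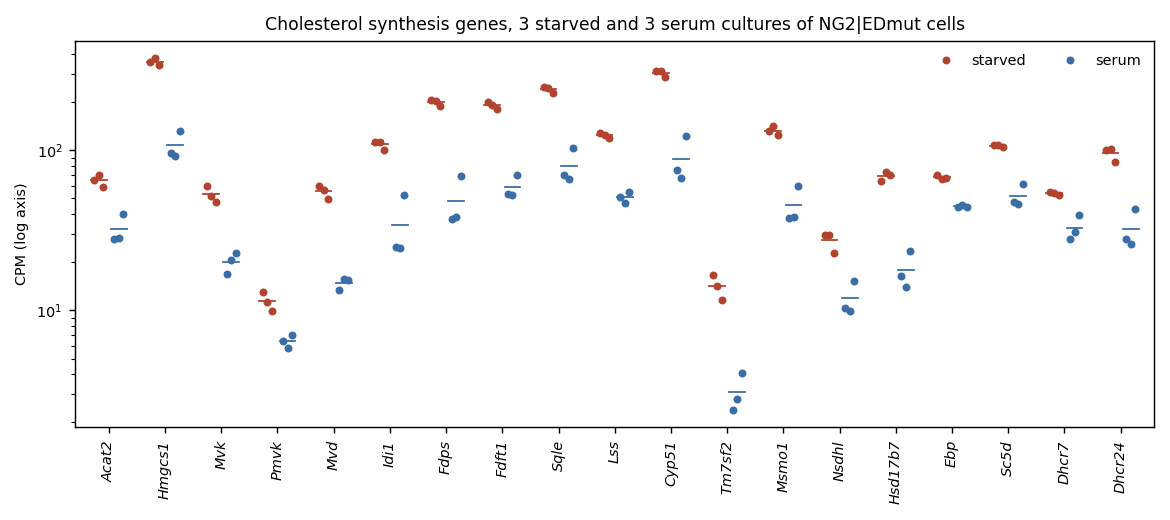
CPM (log axis) of 19 of the 20 cholesterol synthesis genes in each of the 3 starved (red) and 3 serum (blue) cultures of NG2|EDmut cells, in pathway order, with a line at each group mean. The starved cultures lie above the serum cultures for every gene plotted, for Hmgcs1 at 341 to 374 CPM in starved cultures against 92.7 to 133 CPM in serum cultures.

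The promoter of Hmgcs1 carried the sterol element, the site to which SREBP binds. It is shown because Hmgcs1 was the sole member of the pathway with these letters in its window. RefSeq promoters of 300 bases, 250 before and 50 after the start site, were searched on both strands for TCACNCCAC. They were found for 15 of the 20 enzymes, as 18 promoters, of which 1 (5.56%) held the element, against 1.24% of all 32851 promoters. None of 15 promoters of the fatty acid list (13 of 16 genes matched) and none of 17 of the sterol sensing list (10 of 16 genes matched) held it. The 60 bases around the element in Hmgcs1 (GRCm38.p6, chr13:119690189-119690248, plus strand, the element in capitals) are given here.
Hmgcs1: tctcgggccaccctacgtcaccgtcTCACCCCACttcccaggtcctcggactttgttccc

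The genes that sense and move cholesterol followed in part. Of 16 tested, 9 were higher and 1 was lower (median 0.22). Srebf2, the gene of SREBP-2 itself, was at 399, 401 and 384 CPM in starved cultures and 201, 190 and 223 CPM in serum cultures (0.95, standard error 0.07, adjusted p = 6.9e-05). Insig1, which holds the SREBP complex in the endoplasmic reticulum, was also higher (1.26, adjusted p = 0.00014). The groups were apart for both genes. The lower member was Abca1, the exporter of cholesterol to lipoproteins, at 1.40, 1.62 and 1.46 CPM against 3.29, 1.92 and 3.03 CPM in serum (-0.87, standard error 0.23, adjusted p = 0.031). That call was lost in 11 of its 17 alternatives. Counts of higher members fell to 5 with 1 library left out, to 6 with the replicate block and to 3 in the fit over all 12 libraries.

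Fatty acid synthesis and desaturation moved the same way, with 10 of 16 genes higher and none lower (median 0.64). Scd2, a stearoyl-CoA desaturase, was at 2247, 2451 and 2468 CPM in starved cultures and 855, 807 and 827 CPM in serum cultures, the largest absolute difference in the list (1.53, standard error 0.06, adjusted p = 5.6e-06). Its relative Scd1 was at 378, 407 and 423 CPM against 190, 170 and 178 CPM in serum (1.17, standard error 0.07, adjusted p = 2.2e-05). Acly, which makes cytosolic acetyl-CoA from citrate, was 0.81 higher (adjusted p = 0.0001), and Acss2, which makes it from acetate, was 1.84 higher (adjusted p = 0.00044). Srebf1, the gene of the fatty acid branch of SREBP, was at 121, 114 and 113 CPM in starved cultures and 103, 99.8 and 96.0 CPM in serum cultures (0.22, standard error 0.06, adjusted p = 0.047).

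DNA replication stood at the other end. All 35 genes of replication and nucleotide supply were lower in starved cultures, none overlapped between the groups (17.9% of all genes were lower without overlap), and the median log2 fold change was -1.08 with a range of -2.03 to -0.57. The 35 calls were made with the replicate block and with any 1 of the 6 libraries left out. A fit over all 12 libraries of the series called 1 of them, and a fit over 11, without serum replicate 1 of the control line, called all 35.

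Licensing genes load the replicative helicase onto DNA. Cdc6, the loading factor, was at 6.60, 5.94 and 5.28 CPM in starved cultures and 23.4, 26.8 and 22.6 CPM in serum cultures (-2.03, standard error 0.11, adjusted p = 1.8e-05). Mcm5, a helicase subunit, was at 37.8, 34.7 and 28.5 CPM against 90.6, 94.5 and 84.2 CPM in serum (-1.42, standard error 0.10, adjusted p = 5.9e-05). The groups lay far apart for both genes. Chaf1b, which puts histones onto new DNA, was at 7.95, 7.22 and 7.07 CPM against 23.8, 23.4 and 22.7 CPM in serum (-1.65, standard error 0.09, adjusted p = 1.2e-05). Pcna, the sliding clamp of the polymerases, was at 112, 109 and 106 CPM against 199, 196 and 208 CPM in serum (-0.89, standard error 0.06, adjusted p = 4.6e-05). Ung, which removes uracil from DNA and is not in the list, was among the 10 largest falls, at 3.91, 2.30 and 2.95 CPM against 14.1, 15.2 and 14.9 CPM in serum (-2.27, standard error 0.17).

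Mitosis genes moved far less than replication genes. Of 40 genes of mitosis, spindle and cytokinesis, 13 were lower, 1 was higher and 26 did not pass the test, with a median of -0.11. Ccnb1, the cyclin that drives entry into mitosis, was at 50.4, 54.5 and 45.6 CPM in starved cultures and 45.2, 41.4 and 56.5 CPM in serum cultures (0.07, standard error 0.12, adjusted p = 0.75). The groups overlapped. Mki67, the gene of the proliferation marker Ki-67, was at 44.7, 55.6 and 53.04 CPM against 75.1, 51.0 and 65.8 CPM in serum and overlapped too (-0.32, standard error 0.14, adjusted p = 0.16). Kif20a, a kinesin of cytokinesis, was the 1 higher member at 103, 105 and 100.2 CPM against 76.8, 68.1 and 89.4 CPM in serum (0.40, standard error 0.09, adjusted p = 0.022).

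The mitosis genes that fell included Mybl2, a factor of the complex that turns on late cell cycle genes, at 8.57, 7.21 and 6.13 CPM in starved cultures and 23.2, 24.5 and 23.1 CPM in serum cultures (-1.69, standard error 0.12, adjusted p = 5.9e-05). Ect2, which activates RhoA for cytokinesis, was at 29.0, 26.8 and 25.5 CPM against 58.5, 49.5 and 54.0 CPM in serum (-0.99, standard error 0.09, adjusted p = 0.00012). Cdk1, the mitotic kinase, was at 54.2, 52.4 and 47.4 CPM against 67.8, 66.8 and 101.6 CPM in serum (-0.62, standard error 0.15, adjusted p = 0.024). Serum replicate 3 was the highest culture there. The number of lower mitosis genes ranged from 7 to 14 with 1 library left out and was 9 with the replicate block. That of higher ones ranged from 0 to 6 and was 0 with the block.

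Of the genes that control entry into the cycle, 13 of 24 were lower and 2 were higher (median -0.51). Ccne2, a cyclin of the G1 to S step, was at 6.02, 5.90 and 5.55 CPM in starved cultures and 18.4, 18.5 and 25.2 CPM in serum cultures (-1.83, standard error 0.14, adjusted p = 6.2e-05). Ccnd1, the growth factor responsive cyclin, was at 819, 802 and 782 CPM against 1438, 1402 and 1282 CPM in serum (-0.78, standard error 0.06, adjusted p = 9.1e-05). Myc was 0.74 lower on the log2 scale (adjusted p = 0.0018). The 2 higher members were inhibitors of cyclin-dependent kinases. Cdkn2b was at 113, 106 and 96.0 CPM against 73.8, 75.2 and 66.5 CPM in serum (0.55, standard error 0.08, adjusted p = 0.0022), and Cdkn1a passed narrowly (0.28, adjusted p = 0.043). Cdkn1b, the inhibitor classically linked to quiescence, did not pass (0.14).

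**Figure D3:**
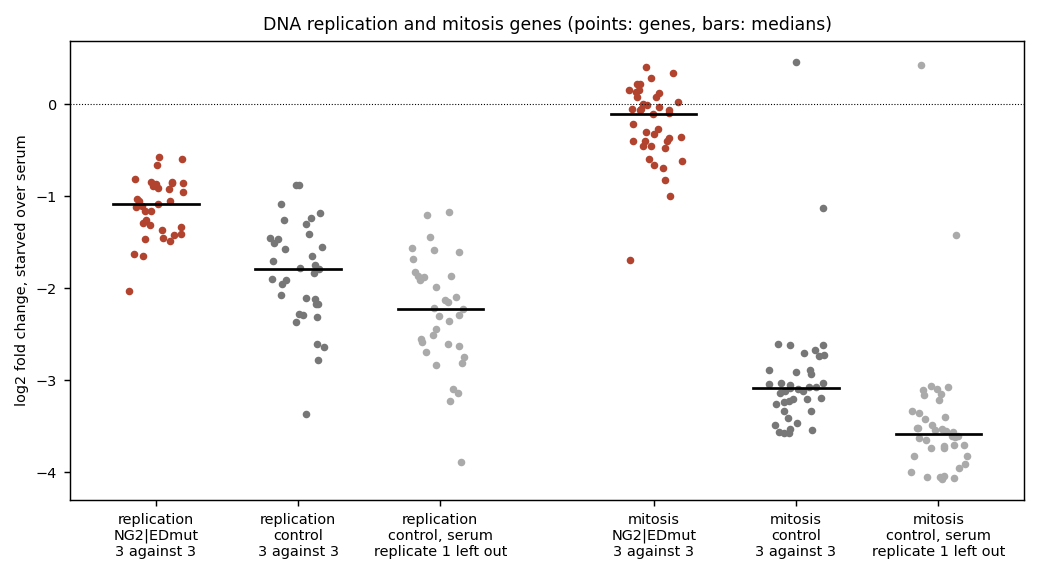
Log2 fold change of starved over serum cultures for each of the 35 DNA replication genes and 40 mitosis genes, in NG2|EDmut cells (red) and in control cells with all libraries (dark grey) and without serum replicate 1 (light grey), with medians as bars. In NG2|EDmut cells the medians are -1.08 for replication and -0.11 for mitosis, and in control cells -1.79 and -3.08, or -2.23 and -3.58 without that library.

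The promoters of these gene groups held different elements. The E2F element, searched as TTTGGCGC and TTTCCCGC on both strands, was in 10 of 35 RefSeq promoters of replication genes (28.6%, 30 of 35 genes matched) and in none of 35 promoters of mitosis genes (33 of 40 genes matched), against 1.56% of all promoters. The cell cycle homology region, CHR, searched as TTTGAA on both strands, showed the other pattern, with 24 of 35 promoters of mitosis genes (68.6%), 4 of 35 of replication genes (11.4%) and 17.9% of all promoters. The CHR was in promoters of mitosis genes that were called lower, among them Ect2, Cdk1 and Top2a, and of mitosis genes that did not pass. CCAAT was in 25 of 35 mitosis promoters (71.4%) and 37.4% of all promoters. Of these windows, 3 with the E2F element are shown for replication genes that fell, and 1 with the CHR for Cdc20, an activator of mitotic exit that did not pass the test (0.15, adjusted p = 0.22). They are 60 bases each from GRCm38.p6, 5′ to 3′ on the strand of the gene with the element in capitals, which reads as its reverse complement where the match is on the other strand. Mcm5 is at chr8:75109334-75109393 (plus), Mcm6 at chr1:128359782-128359841 (minus), Cdc6 at chr11:98907987-98908046 (plus) and Cdc20 at chr4:118437344-118437403 (minus).
Mcm5, E2F: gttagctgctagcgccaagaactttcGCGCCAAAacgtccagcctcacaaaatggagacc
Mcm6, E2F: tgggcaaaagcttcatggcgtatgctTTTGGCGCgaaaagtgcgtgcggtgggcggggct
Cdc6, E2F: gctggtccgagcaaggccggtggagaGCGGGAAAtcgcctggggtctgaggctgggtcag
Cdc20, CHR: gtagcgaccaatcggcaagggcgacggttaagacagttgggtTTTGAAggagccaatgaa

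Feedback inhibitors and targets of the ERK pathway fell as a group, with 15 of 19 lower, none higher and a median of -1.04. Dusp1, a phosphatase that removes the activating phosphates of MAP kinases, was at 13.8, 12.8 and 12.7 CPM in starved cultures and 57.1, 64.5 and 55.1 CPM in serum cultures (-2.17, standard error 0.09, adjusted p = 5.6e-06). Dusp1 overlaps Ergic1 on the opposite strand, which was also lower (-0.47, adjusted p = 0.0013) at a mean of 223 CPM in starved cultures and 308 CPM in serum cultures. Etv5, an ETS factor induced by ERK, was at 10.8, 11.1 and 8.36 CPM against 44.1, 37.6 and 40.5 CPM in serum (-2.01, standard error 0.12, adjusted p = 1.8e-05), and Phlda1 was at 20.0, 19.3 and 19.1 CPM against 57.7, 62.6 and 52.2 CPM in serum (-1.56, standard error 0.08, adjusted p = 1.2e-05). Dusp6, the phosphatase of ERK itself, was 1.63 lower on the log2 scale at 17.1, 15.9 and 13.1 CPM against 44.2, 40.2 and 58.8 CPM in serum. Spry4, a Sprouty inhibitor of receptor signalling, was at 2.45, 2.37 and 2.31 CPM against 11.1, 8.05 and 11.3 CPM in serum (-2.09, standard error 0.16). The 4 members that did not pass were Spred3, Dusp7, Etv1 and Ptpn6.

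Immediate early transcription factors fell in 17 of 25 cases and rose in 1 (median -0.51). Egr1, a zinc finger factor that responds within minutes to growth factors, was at 41.7, 34.4 and 35.3 CPM in starved cultures and 137, 116 and 130.2 CPM in serum cultures (-1.78, standard error 0.10, adjusted p = 1.3e-05). Maff was 1.96 lower (adjusted p = 4.6e-05) and Egr3 1.62 lower on the log2 scale (adjusted p = 0.00031). Fos, the partner of Jun in AP-1, was low in both media at 2.08, 1.51 and 1.65 CPM against 5.20, 4.98 and 4.55 CPM in serum (-1.49, standard error 0.17, adjusted p = 0.00047). None of these groups overlapped. The higher member was the nuclear receptor Nr4a2, at 32.6, 32.0 and 32.0 CPM against 21.6, 23.2 and 25.8 CPM in serum (0.45, standard error 0.08, adjusted p = 0.0060), while its relative Nr4a1 was lower (-0.66, adjusted p = 0.0020). The CArG box, the site of serum response factor, was in 5 of 26 promoters of this list (19.2%) and in 1.63% of all promoters, and the 5 belonged to Egr2 and Zfp36.

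**Figure D4:**
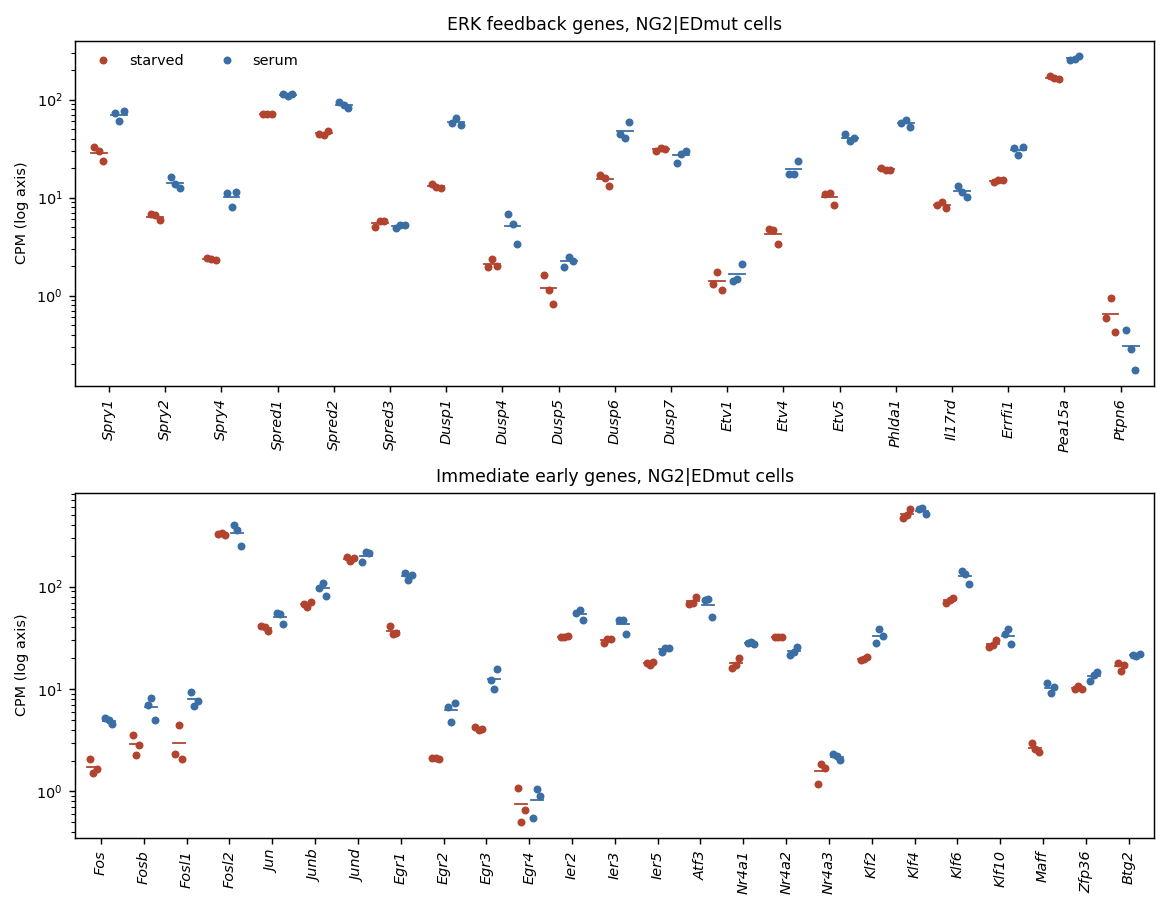
CPM (log axis) of the ERK feedback genes (above) and the immediate early transcription factors (below) in 3 starved (red) and 3 serum (blue) cultures of NG2|EDmut cells, with a line at each group mean. Dusp1 sits at 12.7 to 13.8 CPM in starved cultures against 55.1 to 64.5 CPM in serum cultures, while Nr4a2 lies higher in starved cultures.

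Serum also acts on the actin and YAP routes. Of 18 targets of YAP and TEAD, 10 were lower and 1 was higher (median -0.46). Ccn2, a matricellular growth factor, was at 25.8, 24.6 and 19.0 CPM in starved cultures and 120, 124 and 164 CPM in serum cultures (-2.56, standard error 0.15, adjusted p = 1.8e-05). Ccn1, its relative, was at 116, 110 and 95.8 CPM against 366, 385 and 386 CPM in serum (-1.82, standard error 0.08, adjusted p = 5.6e-06). Crim1 was 0.98 lower and the higher member was F3, tissue factor (0.66, adjusted p = 0.035). The call of F3 was lost with the replicate block. Of 24 SRF and MRTF contractile genes, 6 were lower and none was higher. Tagln was at 124, 106 and 74.8 CPM against 218, 228 and 425 CPM in serum (-1.52, standard error 0.26, adjusted p = 0.0051). Acta2, smooth muscle actin, was at 1005, 856 and 619 CPM against 959, 949 and 1616 CPM in serum and did not pass (-0.51, adjusted p = 0.17), with serum replicate 3 again highest.

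Among the largest changes outside these groups, Rgs16, which speeds the shut-off of G proteins, fell most. It was at 1.14, 1.20 and 0.95 CPM in starved cultures and 23.9, 26.9 and 15.5 CPM in serum cultures (-4.34, standard error 0.22, adjusted p = 1.2e-05). Enpp2, the autotaxin enzyme that makes lysophosphatidic acid, rose to 45.2, 39.6 and 41.4 CPM against 12.9, 12.7 and 9.43 CPM in serum (1.85, standard error 0.12, adjusted p = 3.9e-05). Qpct, a glutaminyl cyclase, was at 22.9, 24.0 and 28.0 CPM against 6.05, 7.35 and 8.10 CPM in serum (1.80, standard error 0.13). Selenbp1 also rose (1.79, standard error 0.27), and the gene model 9930111J21Rik2 fell (-2.13, standard error 0.17). Syn3 was at 1.74, 2.40 and 0.75 CPM against 4.85, 56.5 and 3.62 CPM in serum (-3.74, standard error 1.02, adjusted p = 0.037). Its level in serum rested on replicate 2, and it was not called without that culture. Syn3 lies across Timp3 on the opposite strand.

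The targeted gene did not change detectably with starvation. Cspg4 (ENSMUSG00000032911, GRCm38 chromosome 9, 56865033 to 56899870, plus strand) was at 205, 235 and 255 CPM in starved cultures and 253, 223 and 153 CPM in serum cultures (0.14, standard error 0.16, adjusted p = 0.63), and the groups overlapped. A count over the whole gene does not show whether the transcript is truncated. Type VI collagen, its matrix ligand, passed the test in 2 of the 3 chains measured here. Col6a1 was at 1120, 1067 and 943 CPM against 518, 498 and 701 CPM in serum (0.87, standard error 0.13, adjusted p = 0.0021). Col6a2 was at 864, 823 and 707 CPM against 362, 369 and 555 CPM in serum (0.90, standard error 0.16, adjusted p = 0.0054). Col6a3, the largest chain, was at 372, 461 and 482 CPM against 430, 306 and 301 CPM in serum and did not pass (0.34, standard error 0.15, adjusted p = 0.16). Itgb1, the β1 integrin, was at 712, 748 and 727 CPM against 864, 805 and 954 CPM in serum (-0.26, standard error 0.07, adjusted p = 0.038). Pdgfra was lower (-0.51, adjusted p = 0.013), and Pdgfrb (0.12) and Fgf2 (-0.21) did not pass. Htra2, a mitochondrial protease named in the study, was at 28.6, 27.6 and 27.0 CPM against 45.3, 43.3 and 41.0 CPM in serum (-0.64, standard error 0.07, adjusted p = 0.00044).

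The matrix genes split in both directions. Of 34 collagens, 7 were higher and 4 were lower (median -0.04). Col3a1, a fibrillar collagen, was at 2078, 2122 and 1638 CPM in starved cultures and 877, 834 and 1076 CPM in serum cultures (1.07, standard error 0.12, adjusted p = 0.00051). Col15a1, of basement membrane zones, was at 145, 163 and 175 CPM against 70.5, 62.2 and 61.3 CPM in serum (1.32, standard error 0.09, adjusted p = 4.4e-05), and the transmembrane collagen Col23a1 was at 25.03, 24.5 and 23.7 CPM against 7.56, 7.29 and 6.40 CPM in serum (1.79, standard error 0.09, adjusted p = 1.2e-05). The main fibrillar gene Col1a1 overlapped between the groups (-0.13, adjusted p = 0.24). Among the 4 lower collagens were Col11a1 (-0.61, adjusted p = 0.0019) and Col22a1 (-1.36, adjusted p = 0.0020).

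The enzymes that modify collagen went both ways. Of 27, 7 were higher and 5 were lower. The 7 higher genes act inside the endoplasmic reticulum, as prolyl or lysyl hydroxylases, their partner P4hb, or the chaperone Serpinh1. Plod1, a lysyl hydroxylase, was at 125, 116 and 123 CPM in starved cultures and 81.2, 86.2 and 88.7 CPM in serum cultures (0.51, standard error 0.06, adjusted p = 0.00099), and P4ha2, a prolyl hydroxylase, was 0.48 higher (adjusted p = 0.0022). Of the 5 lower genes, 3 were lysyl oxidases, which crosslink collagen outside the cell. Lox was at 979, 1119 and 1163 CPM against 1627, 1497 and 1900 CPM in serum (-0.62, standard error 0.10, adjusted p = 0.0030), Loxl3 was 0.81 lower (adjusted p = 0.00060) and Loxl1 was 0.38 lower (adjusted p = 0.020). The other lower genes were P3h2, itself a prolyl hydroxylase of the endoplasmic reticulum, and Pcolce2. With 1 library left out the higher count ranged from 2 to 9 and the lower count from 2 to 6. In the fit over all 12 libraries these counts were 2 and 1.

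Of 47 glycoproteins and proteoglycans, 10 were higher and 4 were lower (median 0.07). Thbs1, thrombospondin-1, which activates latent TGF-β, was at 363, 438 and 415 CPM in starved cultures and 1616, 1518 and 1448 CPM in serum cultures (-1.91, standard error 0.08, adjusted p = 5.6e-06). In contrast, Emilin1, a glycoprotein of elastic fibres, was at 280, 266 and 242 CPM against 129, 138 and 145 CPM in serum (0.93, standard error 0.08, adjusted p = 9.1e-05). Tnc, tenascin-C, was at 2260, 2694 and 2572 CPM against 1677, 1389 and 1533 CPM in serum (0.71, standard error 0.09, adjusted p = 0.00086). Tgfbi was 1.08 higher (adjusted p = 0.00028). Fibronectin, Fn1, did not pass (0.47).

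Of 33 matrix proteases and inhibitors, 5 were higher and 10 were lower. Timp3, an inhibitor of metalloproteinases held in the matrix, was at 2063, 2133 and 2033 CPM in starved cultures and 6592, 5322 and 4816 CPM in serum cultures (-1.43, standard error 0.10, adjusted p = 5.9e-05). Timp1 was 1.08 lower (adjusted p = 0.00033). The 2 aggrecanases most studied in cartilage moved apart, with Adamts5 at 9.14, 8.31 and 11.3 CPM against 39.3, 37.5 and 36.8 CPM in serum (-1.98, standard error 0.11, adjusted p = 1.8e-05). Adamts4 was at 38.3, 40.4 and 37.2 CPM against 16.4, 17.0 and 14.2 CPM in serum (1.28, standard error 0.09, adjusted p = 4.4e-05). Neither gene overlapped between the media. Of the urokinase system, the receptor Plaur (-0.95, adjusted p = 6.1e-05) and the protease Plau (-0.56, adjusted p = 0.021) were lower. The membrane protease Mmp14 was 0.57 higher (adjusted p = 0.00038) and Adam19 was 1.45 higher (adjusted p = 7.6e-05).

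**Figure D5:**
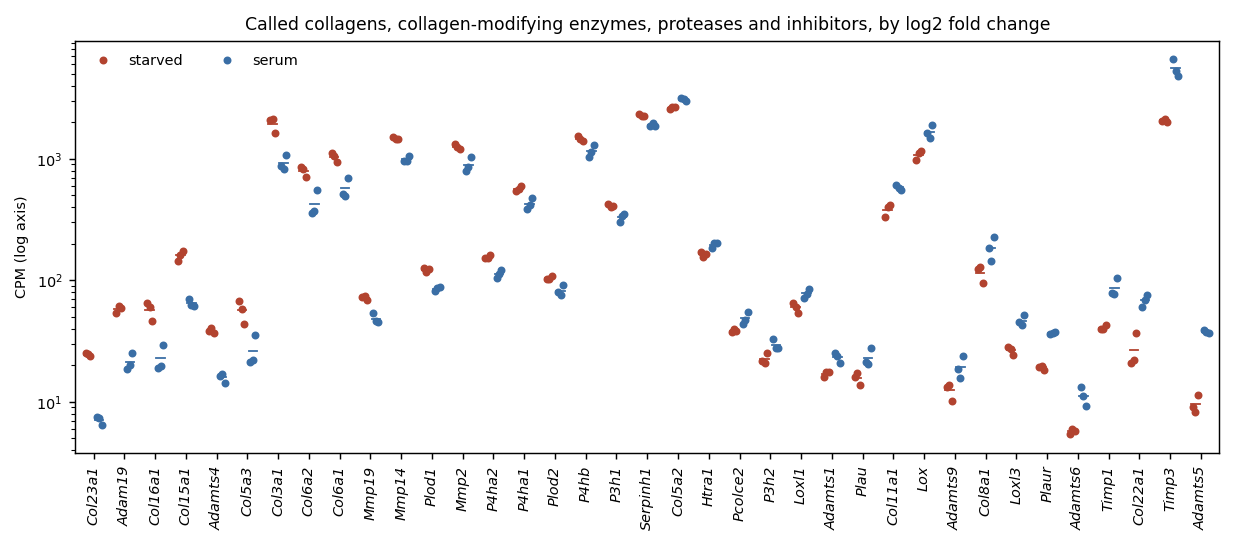
CPM (log axis) of 37 of the 38 called collagens, collagen-modifying enzymes, proteases and inhibitors in 3 starved (red) and 3 serum (blue) cultures of NG2|EDmut cells, ordered by log2 fold change, with a line at each group mean; 19 of those plotted were higher and 18 lower in starved cultures. Col23a1 at the left has 23.7 to 25.03 CPM in starved cultures against 6.40 to 7.56 CPM in serum cultures, and Adamts5 at the right has 8.31 to 11.3 CPM in starved cultures against 36.8 to 39.3 CPM in serum cultures.

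Adhesion receptors showed no common direction, with 4 of 38 higher and 6 lower. Itga7, a laminin receptor subunit, fell (-0.82, adjusted p = 0.00022), as did Itga11, a collagen receptor subunit (-0.38, adjusted p = 0.0036), while Itgb3 rose (0.62, adjusted p = 0.0019). Regulators of migration and actin leaned to lower values, with 11 of 54 lower, none higher and a median of -0.13. Tiam2, an activator of Rac, was at 80.9, 84.7 and 83.7 CPM in starved cultures and 159, 135 and 129 CPM in serum cultures (-0.76, standard error 0.08, adjusted p = 0.00044). Pak3, a kinase downstream of Rac and Cdc42, was at 11.3, 11.9 and 10.9 CPM against 21.5, 17.8 and 19.3 CPM in serum (-0.78, standard error 0.10, adjusted p = 0.00090), and Elmo1 was 0.44 lower (adjusted p = 0.0012). The kinases that the study names with NG2, Prkca (-0.14) and Mtor (0.10), did not pass. The GTPases Rac1 (-0.19), Cdc42 (0.02) and Rhoa (-0.17) did not pass either. With 1 library left out, 7 to 14 of the regulators were lower, and 1 was in the fit over all 12 libraries.

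Growth factor genes of the PDGF, FGF, EGF, HGF and IGF families were lower in 9 of 42 cases and higher in 3 (median -0.19). The fallen ligands included Fgf7, at 26.0, 24.8 and 18.6 CPM in starved cultures and 66.6, 54.5 and 83.6 CPM in serum cultures (-1.56, standard error 0.17, adjusted p = 0.00039). Hbegf, a ligand of the EGF receptor, was at 3.01, 3.12 and 3.06 CPM against 8.60, 7.84 and 7.54 CPM in serum (-1.38, standard error 0.12, adjusted p = 0.00011). Of the receptors, Fgfr1 was lower (-0.47, adjusted p = 0.0030). Fgfrl1, an FGF receptor without a kinase domain, was at 62.3, 66.9 and 86.9 CPM against 32.1, 35.5 and 29.3 CPM in serum (1.16, standard error 0.13, adjusted p = 0.00044).

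In the TGF-β and BMP families 16 of 35 genes were lower and 1 was higher (median -0.40). Bmp4, a BMP ligand, was at 17.9, 17.1 and 18.1 CPM in starved cultures and 57.5, 69.8 and 60.8 CPM in serum cultures (-1.83, standard error 0.09, adjusted p = 8.9e-06). Both families were represented, with the ligand Tgfb2 0.73 lower (adjusted p = 0.00043), the activin subunit Inhbb 1.44 lower (adjusted p = 0.00016) and the activin trap Fst 1.27 lower (adjusted p = 0.00068). Smad7, an inhibitory Smad, was at 34.0, 32.4 and 34.4 CPM against 57.6, 53.6 and 49.9 CPM in serum (-0.68, standard error 0.07, adjusted p = 0.00044). Smad6, the other inhibitory Smad, was lower too (-1.05, adjusted p = 0.00059). Id2, a target of BMP signalling, was at 9.29, 7.84 and 9.02 CPM against 17.2, 16.7 and 20.0 CPM in serum (-1.04, standard error 0.11, adjusted p = 0.00033). The higher gene was Bambi, a decoy receptor (0.34, adjusted p = 0.033). With 1 library left out, 12 to 17 genes were lower and 0 to 1 higher. With the replicate block 0 were higher. The fit over all 12 libraries called 8 lower and 0 higher.

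WNT, Hedgehog and Notch genes split 5 higher and 6 lower of 38. Nkd2, an antagonist of WNT signalling, was at 57.2, 56.4 and 64.4 CPM in starved cultures and 22.1, 23.8 and 25.8 CPM in serum cultures (1.31, standard error 0.09, adjusted p = 3.5e-05). Sfrp4, a secreted WNT binder, was at 1.09, 1.17 and 1.12 CPM against 5.29, 4.37 and 6.92 CPM in serum (-2.29, standard error 0.20, adjusted p = 0.00012). Axin2, the usual readout of β-catenin, did not pass (0.02). The Hedgehog target Gli1 was 0.80 lower (adjusted p = 0.0065), while Ptch1 did not pass (-0.11, adjusted p = 0.70). The Notch target Hes1 was 0.94 lower (adjusted p = 0.0034), while Hey1 (-0.28) and Nrarp (-0.04) did not pass. The receptor gene Notch1 was higher (0.91, adjusted p = 0.0047).

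Lineage genes moved in a few members. Of 25 osteoblast and mineralization genes, 7 were lower and 2 higher. Dmp1, a matrix protein of osteocytes, was at 0.91, 0.78 and 0.36 CPM in starved cultures and 6.05, 5.96 and 8.15 CPM in serum cultures (-3.30, standard error 0.30, adjusted p = 0.00016). Bglap, osteocalcin, was at 98.6, 92.3 and 90.6 CPM against 211, 190 and 304 CPM in serum (-1.33, standard error 0.15, adjusted p = 0.00060). Ank, a transporter that raises extracellular pyrophosphate, was at 120, 113 and 121 CPM against 214, 185 and 228 CPM in serum (-0.83, standard error 0.08, adjusted p = 0.00027). The master factor Runx2 (0.20, adjusted p = 0.082) and the phosphatase Alpl (-0.06) did not pass. Of 14 chondrocyte genes tested, 3 were higher and 1 lower. Sox9, the cartilage factor, was at 29.4, 36.0 and 33.9 CPM against 21.6, 19.1 and 20.3 CPM in serum (0.70, standard error 0.09, adjusted p = 0.0013). Its target Col2a1 did not pass (-0.21). Tendon and fibrocartilage genes split 3 and 3 of 14, with the tendon factor Scx not passing (-0.11) and Creb5, a factor of the articular surface, at 13.2, 14.1 and 14.5 CPM against 39.7, 31.7 and 28.0 CPM in serum (-1.25, standard error 0.12, adjusted p = 0.00025).

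Sugar metabolism leaned upward, with 11 of 20 glycolysis genes higher and none lower (median 0.27). Pfkl, a phosphofructokinase, was at 164, 150 and 156 CPM in starved cultures and 83.1, 82.7 and 91.4 CPM in serum cultures (0.87, standard error 0.07, adjusted p = 8.3e-05). Hk1, hexokinase, was at 220, 219 and 208 CPM against 146, 137 and 147 CPM in serum (0.59, standard error 0.06, adjusted p = 0.00033). The glucose carrier Slc2a1 did not pass (0.11). With 1 library left out, 7 to 11 of the glycolysis genes were higher, and 2 were in the fit over all 12 libraries.

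Lysosome and autophagy genes were higher in 11 of 30 cases and lower in none (median 0.21). Neu1, a lysosomal sialidase, was at 65.8, 56.9 and 57.8 CPM in starved cultures and 32.0, 38.4 and 37.7 CPM in serum cultures (0.74, standard error 0.09, adjusted p = 0.00088). Ulk1, the kinase that starts autophagy, was 0.55 higher (adjusted p = 0.0021). Between 6 and 16 of these genes were called with 1 library left out, and 1 in the fit over all 12 libraries. Targets of FOXO and nutrient restriction went both ways, with 6 higher and 6 lower of 25. Sesn1, a sestrin that restrains mTORC1, was at 59.2, 54.6 and 57.2 CPM against 34.9, 35.8 and 38.8 CPM in serum (0.64, standard error 0.07, adjusted p = 0.00044), while Irs2, a classic FOXO target, was 1.13 lower (adjusted p = 0.0024). Arrdc4, an arrestin family gene, was at 13.3, 13.3 and 11.4 CPM against 1.72, 2.28 and 5.47 CPM in serum (2.004, standard error 0.35, adjusted p = 0.0055). Txnip, its close relative and an inhibitor of glucose uptake, was at 191, 192 and 210 CPM against 7.92, 9.77 and 84.9 CPM in serum. The groups did not overlap, but serum replicate 3 stood far from the other serum cultures and the gene missed the threshold (2.54, standard error 0.77, adjusted p = 0.054).

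Amino acid stress genes driven by ATF4 moved in few cases. Of 23, 3 were higher and 2 were lower (median 0.02), and the factor Atf4 (0.09) and the asparagine synthetase Asns (-0.13) did not pass. The member with the smallest adjusted p was Ddit4, an inhibitor of mTORC1 that ATF4 and other factors induce, at 200.4, 186 and 194 CPM in starved cultures and 75.2, 82.1 and 73.3 CPM in serum cultures (1.33, standard error 0.07, adjusted p = 1.2e-05). Amino acid transporters split 2 higher and 3 lower of 18, with Slc6a6, the taurine carrier, 0.51 lower (adjusted p = 0.0036). Ribosome biogenesis was lower in 8 of 25 genes and higher in none (median -0.17), with Npm1, a nucleolar chaperone, at 971, 978 and 975 CPM against 1262, 1274 and 1237 CPM in serum (-0.37, standard error 0.05, adjusted p = 0.0018). Of 30 ribosomal protein genes 3 were lower, a share near the 8.77% of all genes. Chaperones and the unfolded protein response had 4 of 20 higher and 1 lower, and none of the 4 was called with the replicate block.

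Oxidative stress genes were higher in 10 of 28 cases and lower in 5. Sod3, the extracellular superoxide dismutase, was at 140, 129 and 130.3 CPM in starved cultures and 75.4, 79.7 and 88.8 CPM in serum cultures (0.71, standard error 0.08, adjusted p = 0.00041). The metallothionein Mt1 was 0.70 higher (adjusted p = 0.00099). Among the lower members were Gclm, a subunit of the enzyme that starts glutathione synthesis (-0.45, adjusted p = 0.0027), and the peroxidase Gpx1 (-0.51, adjusted p = 0.00053). Inflammatory mediators fell in 7 of 26 cases and rose in none. Ptgs2, the inducible cyclooxygenase, was at 18.3, 22.4 and 19.2 CPM against 81.1, 61.6 and 58.1 CPM in serum (-1.75, standard error 0.13, adjusted p = 6.9e-05). Tnfaip3, an inhibitor of NF-κB, was at 3.23, 3.41 and 3.61 CPM against 12.02, 9.70 and 11.8 CPM in serum (-1.71, standard error 0.13, adjusted p = 5.9e-05). Of 26 interferon and antigen presentation genes, 4 were higher and 2 lower, led by Stat2 at 29.7, 28.4 and 28.5 CPM against 16.8, 16.5 and 15.7 CPM in serum (0.82, standard error 0.07, adjusted p = 0.00014).

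Whether the mutant line responded like the control line was tested with an interaction of line and medium over all 12 libraries. It called 821 of 18703 genes (4.39%), 380 with a response more positive in NG2|EDmut cells and 441 with a more negative one. Each line is 1 clone, so a p-value of this test measures the spread between cultures. The truncation cannot be told apart from other differences between the clones. Serum replicate 1 of the control line stood apart from its group in cell cycle genes, for example with Mki67 at 41.3 CPM there against 348 and 287 CPM in serum replicates 2 and 3 of that line. That library also stood apart in genes outside the cell cycle. Egr1 was at 103 CPM there against 25.1 and 29.2 CPM, and Acta2 at 1338 CPM against 4397 and 5048 CPM. The same library lay close to its group in others, such as Nr4a1 at 22.6 CPM there against 23.9 and 21.7 CPM. Without that library, 3901 of 19265 genes (20.2%) were called. Among the genes tested in NG2|EDmut cells these shares were 4.65% and 22.0%. Each count below is given with all 12 libraries first and without that library second. CPM of the control line are scaled with library sizes of the fit over all 12 libraries. CPM of NG2|EDmut cells are scaled with those of the fit on their own 6 libraries, so levels of the lines are not on exactly the same scale.

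All 20 cholesterol synthesis genes were called in the interaction with all libraries and without that one, each with the more positive response in NG2|EDmut cells. Their median log2 fold change was 1.56 in NG2|EDmut cells and -1.25 in control cells, or -1.56 in control cells without serum replicate 1. In control cells 6 were called lower and 0 higher with all libraries. Without that replicate 19 were called lower and 1, Tm7sf2, higher. Hmgcs1, at 341 to 374 CPM in starved NG2|EDmut cells against 92.7 to 133 CPM in serum, was at 127, 111 and 117 CPM in starved control cells against 220, 577 and 459 CPM in serum. Fatty acid genes were called in 8 of 16 cases, or 12 without that library.

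Mitosis genes differed between the lines in 25 of 40 cases, or 39 without that library, and replication genes in 0 of 35, or 29. The count for replication therefore depended on 1 control culture. Ccnb1 was at 16.6, 11.6 and 11.4 CPM in starved control cells against 26.9, 179 and 181 CPM in serum, where the 6 NG2|EDmut cultures all lay between 41.4 and 56.5 CPM. Its difference of responses was 3.36 on the log2 scale (adjusted p = 0.022, edgeR), or 3.84 without the library (adjusted p = 9.8e-07). Pcna was at 105, 111 and 94.2 CPM in starved control cells against 94.4, 337 and 372 CPM in serum, and its difference was 0.48 (adjusted p = 0.67), or 0.89 without the library (adjusted p = 0.00042). Ribosome biogenesis was called in 14 of 25 cases, or 23, with a median of -0.17 in NG2|EDmut cells and -1.14 in control cells.

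ERK feedback genes were called in 13 of 19 cases, or 15, each of the 13 with the more negative response in NG2|EDmut cells. Their median was -1.04 in NG2|EDmut cells and 0.66 in control cells, with all libraries and without serum replicate 1 alike. Dusp1 was at 40.4, 33.2 and 37.0 CPM in starved control cells against 17.8, 9.90 and 13.4 CPM in serum, so it was higher in starved control cells and lower in starved NG2|EDmut cells. Immediate early factors were called in 11 of 25 cases, or 15, with medians of -0.51 in NG2|EDmut cells and 0.52 in control cells. Rgs16 was at 0.75, 1.11 and 1.04 CPM in starved control cells against 2.56, 2.16 and 2.27 CPM in serum, and its difference was -3.07 (standard error 0.32, adjusted p = 0.00045). Over all genes, 319 were called for starvation in both lines, 74 of them in opposite directions, or 1279 and 283 without the library.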

How the data were processed

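Poly(A) RNA-seq of 3 starved and 3 serum cultures of the NG2|EDmut line was used, with the 6 control libraries for the test of the difference between lines. The authors deposited 1 table with estimated counts per gene from StringTie, all of them whole numbers, and FPKM per gene. The submitters' processing notes name FastQC, HISAT2, StringTie and edgeR, with no version given in the sources used here. The table listed 29862 genes, and 99.46% of the 29787 IDs found in GENCODE M21 shared chromosome and start with GRCm38. FPKM, which the authors computed per length and depth, were used for markers and for an alternative test.

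Estimated counts were fitted with edgeR 4.0.16 in R 4.3.3 (TMM, filterByExpr, quasi-likelihood test) on the 6 libraries alone, with p-values adjusted over all 17542 genes by the Benjamini-Hochberg method at 0.05. A standard error is the log2 fold change divided by the square root of F. The interaction of line and medium was fitted over 12 libraries. Alternatives were other scalings, DESeq2 1.42.0, limma 3.58.1 on log2(FPKM + 1) and log2(FPKM + 0.1), with genes of at least 0.5 FPKM, other filters, counts divided by 4, a replicate block, the fit over all libraries and each library left out. Replicate numbers did not pair the cultures, and the block is an alternative.

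Named genes are Cspg4 and genes the study names, the 10 called genes that rose most and the 10 that fell most, if the cultures of the media were apart and the higher medium averaged at least 10 CPM, the 3 called members with the smallest adjusted p in each direction of each list with its anchor members, and for the interaction the 10 genes with the smallest adjusted p among those called in opposite directions in the lines with a group mean of at least 10 CPM. Members named outside this rule were chosen after their values were seen. Members and lists were chosen with earlier results of these data known. List symbols carried by more than 1 gene (2 of them) were left out. A few list members are counted with their lists and are not reported by name here.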

Additional observations from a re-analysis of the deposited data

Results flagged for a closer look

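For 10 genes the responses of the lines were called in opposite directions and the test of the difference itself, an interaction of line and medium in edgeR's quasi-likelihood test over 12 libraries, gave the smallest adjusted p. Each difference is the NG2|EDmut response minus the control response on the log2 scale, with the adjusted p of that fit where given, and the value without control serum replicate 1 follows. With 1 clone per line, the part of the truncation in these differences was not tested.

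Dusp1, the MAP kinase phosphatase, differed by -3.59 with an adjusted p of 6.2e-05, and by -3.83 with an adjusted p of 5.6e-07 without that library. It overlaps Ergic1 on the opposite strand, which was also lower in starved NG2|EDmut cells (-0.47, adjusted p = 0.0013, a mean of 223 CPM in starved cultures and 308 CPM in serum cultures). The part of Ergic1 in the result was not tested. Spry4, the Sprouty inhibitor, differed by -3.57 (-3.48), with 4.59, 4.52 and 4.50 CPM in starved control cells against 1.43, 1.66 and 1.83 CPM in serum. Nr4a1, an immediate early nuclear receptor, differed by -1.89 (-1.89). It was at 16.1, 17.3 and 20.2 CPM in starved NG2|EDmut cells against 28.3, 29.0 and 27.3 CPM in serum, and at 51.9, 51.4 and 57.2 CPM in starved control cells against 22.6, 23.9 and 21.7 CPM in serum.

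Ank, the pyrophosphate transporter, differed by -2.22 with an adjusted p of 6.2e-05, and by -2.29 with an adjusted p of 2.0e-06 without that library, with 417, 369 and 455 CPM in starved control cells against 171, 153 and 148 CPM in serum. Htra1, a secreted serine protease, differed by -1.43 (-1.44). Tnfrsf19, a receptor of the TNF family, went the other way and differed by 3.57 with an adjusted p of 0.00014, and by 3.77 with an adjusted p of 1.1e-06 without that library. It was at 360.2, 381 and 362 CPM in starved NG2|EDmut cells against 213, 214 and 243 CPM in serum, and at 23.9, 27.5 and 32.8 CPM in starved control cells against 143, 282 and 182 CPM in serum. The 4 other genes were Mxra7, Arhgap24, Sgk1 and Sting1. Mxra7 differed by -1.91 (-1.81) and Arhgap24, a GTPase activator for Rac, by -1.91 (-1.89). Sgk1, a kinase induced by serum and glucocorticoids, differed by -1.88 (-1.999). Sting1, the adaptor of cytosolic DNA sensing, differed by -2.37 (-2.50). Its fall in NG2|EDmut cells passed narrowly (-0.39, adjusted p = 0.049, edgeR), against a response of 1.95 in control cells. It was at 7.89, 8.72 and 7.02 CPM in starved NG2|EDmut cells against 10.5, 9.60 and 10.7 CPM in serum. The fall of Htra1 in NG2|EDmut cells was also small (-0.25, adjusted p = 0.037, edgeR).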

How the results depend on the processing

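The 1221 higher and 1539 lower genes kept their sign in every alternative, with 0 calls reversed, but the counts moved. A fold of at least 2 left 176 higher and 259 lower genes. The fit over all 12 libraries called 179 and 206, and the fit over 11 without control serum replicate 1, chosen after seeing the data, called 599 and 854. limma on log2(FPKM + 1) with no filter called 882 lower. With the replicate block 613 and 881 genes were called. Deviations of same-numbered cultures correlated at -0.24, -0.078 and -0.17, so the numbers do not pair the cultures. Leaving out 1 library gave 571 (without starved replicate 2) to 1611 (without serum replicate 3) higher and 836 to 1959 lower genes. The 821 genes of the interaction became 1603 with DESeq2 and 443 with the replicate block, and ranged from 339 (without NG2|EDmut starved replicate 3) to 3901 (without control serum replicate 1). The cause of these shifts was not tested. Of 184 called genes named by the rule, 50 were called in every alternative and 104 were lost in the 12-library fit. Depth was similar in all mutant libraries, and 3 cultures of 1 clone per medium limit the precision.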

Other observations

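Further gene groups moved in a few members. Of 24 targets of p53, 7 were higher and 1 was lower in starved NG2|EDmut cells, against 6.96% and 8.77% of all genes. Trp53inp1, a p53 target that takes part in autophagy, was at 74.1, 78.7 and 76.9 CPM in starved cultures and 27.4, 33.5 and 38.6 CPM in serum cultures (1.21, standard error 0.11, adjusted p = 0.00018, edgeR). Mdm2, the standard p53 target, did not pass (-0.07). Of 18 hypoxia genes, 6 were higher and 1 was lower. Higd1a, a mitochondrial protein, was at 39.5, 42.0 and 48.5 CPM against 22.7, 24.3 and 29.2 CPM in serum (0.77, standard error 0.11, adjusted p = 0.0020), while Vegfa did not pass (0.03).

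Of 18 circadian clock genes, 3 were higher and 3 were lower. Bhlhe41, a repressor of the clock, was at 25.6, 25.6 and 25.7 CPM in starved cultures and 11.6, 12.6 and 11.5 CPM in serum cultures (1.10, standard error 0.08, adjusted p = 5.2e-05). Arntl, the core activator, was 0.46 lower (adjusted p = 0.0089). Of 12 glucocorticoid response genes, 2 were higher and 6 were lower. The lower ones included Dusp1, Errfi1 and Sgk1, which growth factors also induce. The other lower ones were Fkbp5 (-0.25, adjusted p = 0.037), Klf9 (-0.45, adjusted p = 0.0088) and the receptor gene Nr3c1 (-0.42, adjusted p = 0.020). The higher ones were Tsc22d3 (0.44, adjusted p = 0.0043) and the metallothionein Mt2 (0.82, adjusted p = 0.0016). Of 14 retinoid genes, 1 was higher and 2 were lower, among them Cyp26b1, which breaks down retinoic acid, at 3.85, 4.66 and 4.15 CPM in starved cultures and 7.60, 8.23 and 8.37 CPM in serum cultures (-0.93, standard error 0.12, adjusted p = 0.0011).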
